A study of Mus musculus with 6 samples.

Results

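The genes described here act on transfer RNA in the nucleus and cytosol: the subunits of nuclear RNase P and RNase MRP, the tRNA splicing, ligation and export factors, and the enzymes that modify tRNA bases. A place in this group does not exclude that a gene also acts on mitochondrial tRNA. The genes were taken as 41 named genes, by matching their symbols to the gene names in the authors' deposited table. All 41 were found among 51888 counted features. Each was compared between hearts of 3 Elac2 knockout mice, titled L/L, cre and labelled Elac2 -/-, and hearts of 3 control mice, titled L/L and labelled Elac2 +/+. All mice were on a C57BL/6 background, and their ages were not given in the sources used here. In the knockout mice an exon of Elac2 between loxP sites was removed by cre under the muscle creatine kinase promoter, so other cells of the heart could retain the gene. The title L/L and the genotype label Elac2 +/+ do not settle whether the control mice carry the loxP-flanked allele. RNA came from whole hearts, and 1 count column per mouse was deposited.

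A nuclear tRNA precursor carries extra sequence at both ends. RNase P, an RNA enzyme with protein subunits, removes the 5' leader, and RNase Z, which Elac2 encodes, removes the 3' trailer in the nucleus and in mitochondria. RNase MRP shares most of its protein subunits with RNase P and cleaves ribosomal RNA precursors. Some precursors also lose an intron, and mature tRNAs are modified at many bases before and after export to the cytosol.

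Elac2 (chr11:64979038-65002069, mm10) was called lower in the knockout hearts. In CPM, the count scaled to a common library size, it stood at 5.35, 5.62 and 6.51 in knockout libraries, against 15.0, 14.0 and 13.0 in control libraries. The log2 fold change was -1.27 (SE 0.15, edgeR quasi-likelihood test, adjusted p = 2.12e-04). Library sizes were adjusted by TMM, a trimmed mean over genes, so fold changes are relative to the bulk of tested genes. The libraries held 9850100 to 14461110 counts in knockouts and 12057962 to 14276410 in controls, and mitochondrial-encoded features took 33.3 to 36.7% of counts in knockouts and 49.3 to 61.1% in controls. Summed over 10 cardiomyocyte markers, levels were 65922 to 67693 CPM in knockouts and 95862 to 97609 CPM in controls, so the labelled tissue carried its markers, and 4 of the 10 were called lower and 0 higher. The 10 endothelial markers summed to 565 to 696 CPM in knockouts and 779 to 868 CPM in controls (5 lower, 0 higher), and the 10 fibroblast markers to 1735 to 2991 CPM in knockouts and 1183 to 1760 CPM in controls (1 higher, 0 lower). Macrophage and leukocyte markers summed to 179 to 209 CPM in knockouts and 157 to 173 CPM in controls, with 1 of 8 tested called higher, and the T cell marker Cd3e was at 0 to 0.106 CPM in knockouts and at 0 to 0.116 CPM in controls. Erythroid markers summed to 1438 to 2937 CPM in knockouts and 521 to 1791 CPM in controls, with 1 of 7 called higher. In RNA of whole tissue, a change in the number of cells of a type and a change in RNA per cell cannot be told apart, and the part of these marker levels in the results below was not tested.

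Most of the 41 genes were higher in the knockout hearts. The 40 that passed the low-count filter included 22 called higher, or 55.0%, and 1 called lower, or 2.50%, at an adjusted p under 0.05. Over all 14302 genes tested, 36.5% were called, with 18.7% higher and 17.8% lower. The median log2 fold change of the 40 members was 0.49, against -0.01 over all genes, and 36 of 40 had a value above 0, against 49.1% of all genes. All 3 knockout libraries lay above all 3 control libraries for 25 of the 40, or 62.5%, against 26.2% of all genes, and below them for 2, against 24.5%. Scaling by library size alone moved the median of all genes to 0.68 and that of the 40 members to 1.18, with 38 called higher and 0 lower, against 56.6% and 3.86% of all genes.

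**Figure D1:**
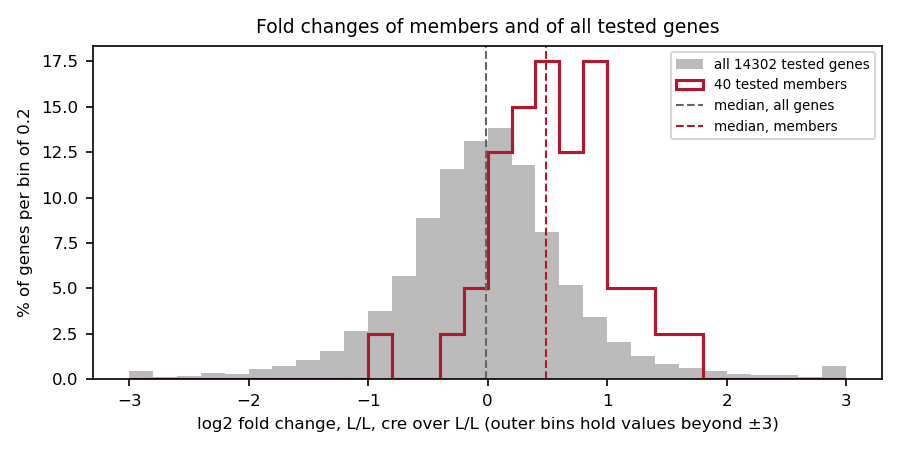
Distribution of the log2 fold change, L/L, cre over L/L, as the percentage of genes in bins of 0.2, for 40 tested members (red outline) and all 14302 tested genes (grey bars), with dashed lines at the medians of 0.49 and -0.01. The members sit to the right of the bulk of genes, and 36 of the 40 have a value above 0.

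**Figure D2:**
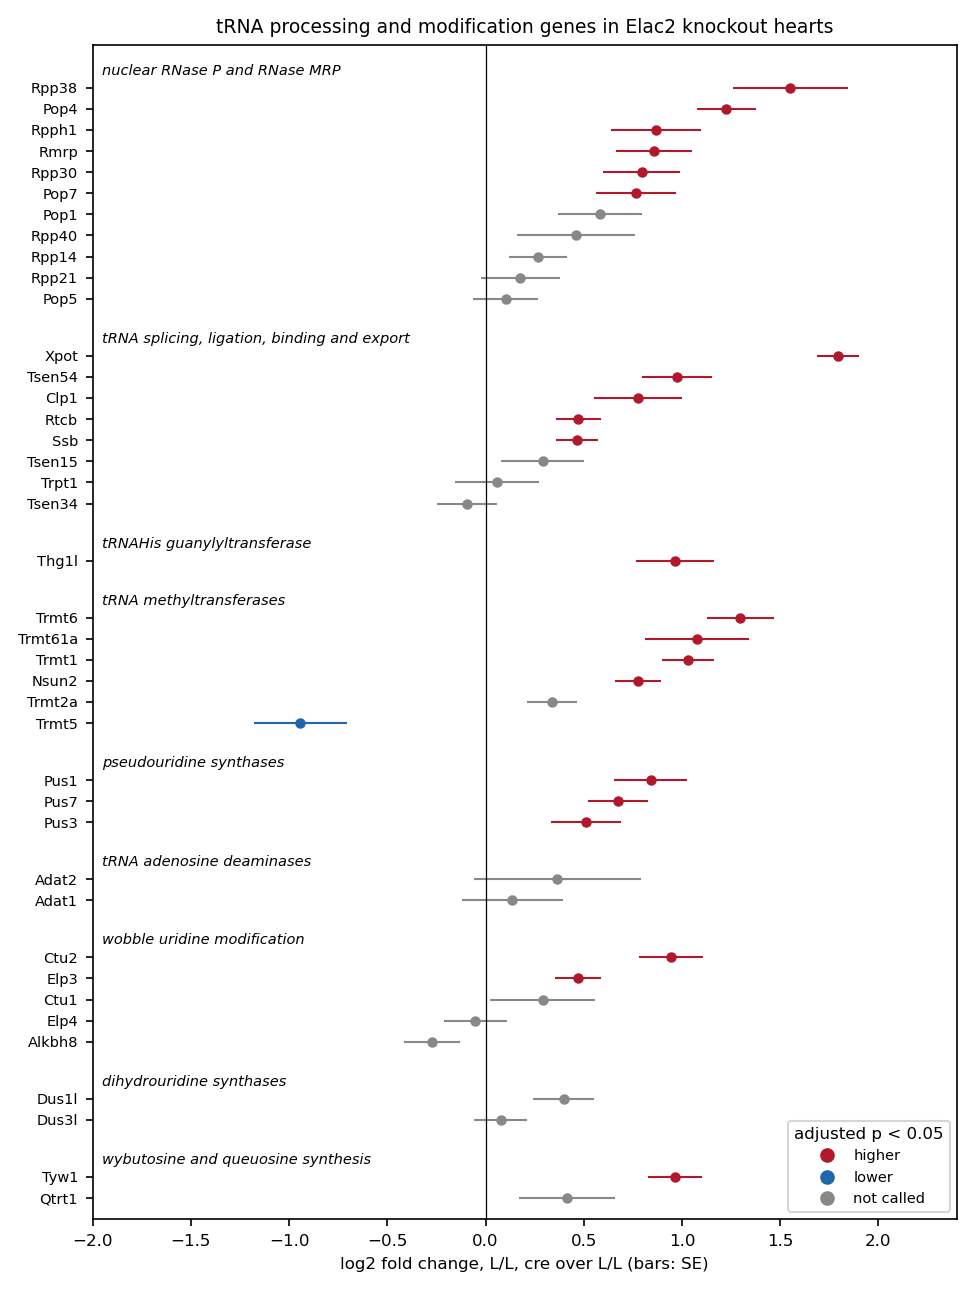
Log2 fold change of each tested member, L/L, cre over L/L (points), with its SE (bars), grouped by role, in red for the 22 called higher, blue for the 1 called lower and grey for the others. Called genes occur in 7 of the 9 role groups, from Xpot at 1.79 to Trmt5 at -0.94.

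Rpph1 and Rmrp, the RNAs at the core of these enzymes, are printed here because both were called higher and because each overlaps another gene, which bears on how its reads were counted. Both are transcribed from the minus strand and are given 5' to 3' as DNA letters of the GENCODE M21 transcripts (mm10), with capitals for bases that also lie in an annotated exon of Ccnb1ip1 (for Rpph1, 233 of 319 bases, same strand) or of Ccdc107 (for Rmrp, 124 of 271 bases, opposite strand). Rmrp is whole, and Rpph1 is given for its first 300 bases.
Rpph1 (chr14:50807449-50807767): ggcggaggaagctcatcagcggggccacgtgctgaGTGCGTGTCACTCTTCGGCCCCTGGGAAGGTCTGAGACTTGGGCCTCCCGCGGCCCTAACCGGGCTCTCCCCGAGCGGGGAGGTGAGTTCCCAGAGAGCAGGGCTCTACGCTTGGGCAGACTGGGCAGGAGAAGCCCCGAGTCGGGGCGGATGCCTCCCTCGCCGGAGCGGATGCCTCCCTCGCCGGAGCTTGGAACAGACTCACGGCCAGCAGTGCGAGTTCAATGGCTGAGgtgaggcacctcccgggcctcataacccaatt
Rmrp (chr4:43492788-43493058): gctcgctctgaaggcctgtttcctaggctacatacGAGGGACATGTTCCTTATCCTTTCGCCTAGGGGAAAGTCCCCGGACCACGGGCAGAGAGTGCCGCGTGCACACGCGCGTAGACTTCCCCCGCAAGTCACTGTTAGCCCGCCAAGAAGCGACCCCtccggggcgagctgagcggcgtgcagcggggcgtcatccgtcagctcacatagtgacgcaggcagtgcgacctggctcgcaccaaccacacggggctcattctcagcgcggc

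Rpph1, the catalytic RNA of RNase P, was at 1118, 1283 and 1579 CPM in knockout libraries, against 965, 676 and 539 CPM in control libraries. The groups did not overlap, but control 1 lay closer to the lowest knockout library than to control 2. The log2 fold change was 0.87 (SE 0.23, adjusted p = 0.0144), and without control 2 the call was lost at 0.82 (adjusted p = 0.0633). Rmrp, the RNA of RNase MRP, was at 430, 463 and 575 CPM in knockouts, against 344, 254 and 211 CPM in controls, in the same order of libraries within each group as Rpph1. Its log2 fold change was 0.86 (SE 0.19, adjusted p = 7.21e-03). The ratio of Rpph1 to Rmrp counts within a library, which is free of library scaling, was 2.60, 2.77 and 2.75 in knockouts and 2.80, 2.66 and 2.55 in controls, so the ranges overlapped. Ccnb1ip1 had 0 counts in each of the 6 libraries, and Ccdc107 was itself called higher, at 0.79 (SE 0.17, adjusted p = 4.88e-03). The strand setting of the counting is unknown here, and reads of Rmrp and Ccdc107 may be mixed. Ccdc107 had 162, 186 and 107 counts in knockouts and 69, 52 and 45 in controls. Rmrp had 8119, 7990 and 7151 counts in knockouts and 4583, 2293 and 1821 in controls.

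The protein subunits of RNase P and RNase MRP split into 4 called higher and 5 not called, and Rpp25 did not pass the filter. Pop4, a subunit at the core of both enzymes, was at 13.8, 17.2 and 16.9 CPM in knockouts, against 6.83, 7.21 and 6.38 CPM in controls. The groups stood well apart, at 1.22 on the log2 scale (SE 0.15, adjusted p = 2.71e-04). The fold change of Rpp38, an RNA-binding subunit, was larger but came from fewer reads. It had 55, 58 and 58 counts in knockouts against 17, 13 and 8 in controls, or 3.65 ± 0.908 CPM in knockouts and 1.22 ± 0.263 CPM in controls (SD, n = 3 each). Its log2 fold change by edgeR's quasi-likelihood test was 1.55 (SE 0.29, adjusted p = 2.78e-03). Both genes lay above the controls in all 3 knockout libraries. Rpp30, a protein subunit of both enzymes, was at 7.20, 10.1 and 8.28 CPM in knockouts, against 5.56, 4.10 and 4.98 CPM in controls. It was higher by 0.80 (SE 0.19, adjusted p = 0.0104), but missed the threshold without knockout 2 (0.65, adjusted p = 0.0502). Pop7, the partner of Rpp25, was at 4.18, 4.35 and 4.18 CPM in knockouts, against 2.48, 2.22 and 2.78 CPM in controls. The groups of Rpp30 and Pop7 did not overlap either. Pop7 was higher by 0.77 (SE 0.20, adjusted p = 0.0152), and its call was lost without knockout 2 (adjusted p = 0.0523) and without control 2 (adjusted p = 0.0572). In the authors' deposited table Pop7 was at 0.80 (adjusted p = 0.0532).

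Pop1, the largest protein subunit, was at 7.10, 4.58 and 6.59 CPM in knockouts and 4.20, 4.21 and 3.71 CPM in controls. The groups did not overlap, yet the gene missed the threshold at 0.58 (SE 0.21, adjusted p = 0.0564) and passed it without knockout 2 (0.76, adjusted p = 0.0254). Values for the subunits Rpp40, Rpp14, Rpp21 and Pop5 were 0.46, 0.27, 0.18 and 0.10, with adjusted p of 0.253, 0.176, 0.523 and 0.653 in edgeR's quasi-likelihood test, and their groups overlapped. Rpp25 had 8, 8 and 5 counts in knockouts and 7, 6 and 5 in controls, too few to test, and its CPM were 0.402 to 0.464 in knockouts and 0.526 to 0.665 in controls. The ratio of Pop4 to Pop5 counts was 1.84, 2.41 and 2.36 in knockout libraries and 0.867, 1.20 and 1.02 in control libraries, and that of Rpp38 to Rpp14 was 0.211, 0.214 and 0.299 in knockouts and 0.100, 0.135 and 0.0661 in controls, neither pair of ranges overlapping. The pairs compared by ratio here and below were chosen after their values were seen.

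**Figure D3:**
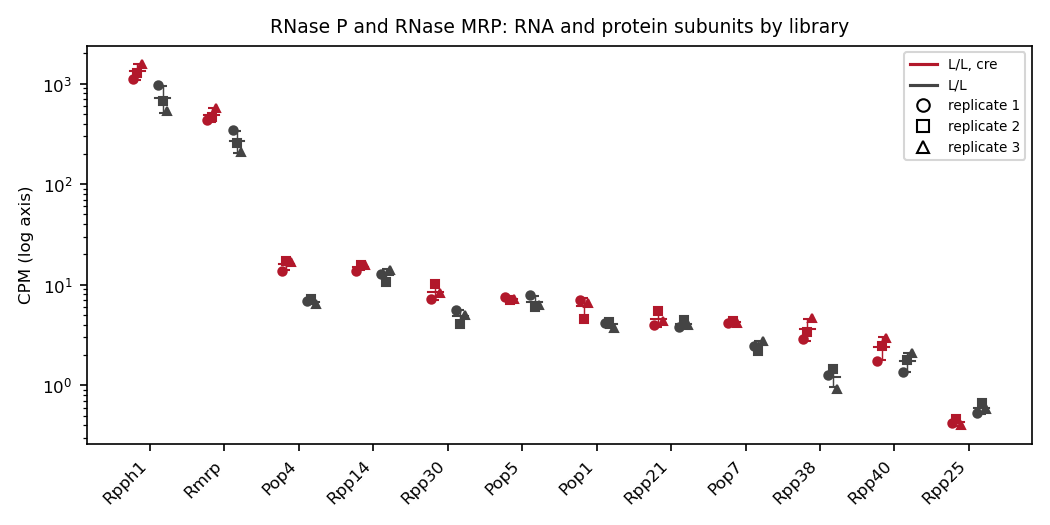
Level in CPM on a log axis of the RNA and protein subunits of RNase P and RNase MRP in each library (points, shaped by replicate number) with the mean and SD of 3 libraries, knockout (L/L, cre, red) left of control (L/L, grey). Rpph1, Rmrp, Pop4, Rpp30, Pop1, Pop7 and Rpp38 show no overlap with knockouts above controls, and the other subunits overlap, except Rpp25, where the knockouts lie below.

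Compared per kilobase of annotated exon, the 2 RNAs stood far above the proteins. Rpph1 averaged 4159 ± 733 CPM per kb in knockouts and 2278 ± 682 in controls, and Rmrp averaged 1805 ± 280 in knockouts and 996 ± 250 in controls (SD, n = 3 each). The protein subunits lay between 0.302 CPM per kb (Rpp25) and 6.26 (Rpp14) in knockouts and between 0.266 (Rpp40) and 5.20 (Rpp14) in controls. Pop4 was at 5.60 ± 0.649 CPM per kb in the knockouts, next to Rpp14, and at 2.39 ± 0.147 in the controls, where Rpp21 at 3.34 ± 0.265 and Pop5 at 2.92 ± 0.446 also stood above it.

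Among the factors of tRNA splicing, ligation, binding and export, 5 of 8 were called higher. By edgeR, 0 were lower, at an unadjusted p under 0.05 as well, and DESeq2 and limma-voom also called 0 lower. Xpot (chr10:121587380-121626332, mm10), the receptor that carries mature tRNA out of the nucleus, had the largest fold change of all 40 tested members. It was at 111, 114 and 106 CPM in knockouts, against 31.5, 31.4 and 32.5 CPM in controls, and both groups were tight. The log2 fold change was 1.79 (SE 0.11, adjusted p = 6.18e-06), or 3.46-fold, and it ran from 1.76 to 2.49 over the 16 alternatives. Per kilobase, Xpot was at 18.2 ± 0.667 CPM in knockouts and 5.27 ± 0.0993 in controls, place 4 among the 41 members in knockouts and place 8 in controls.

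Of the 3 measured subunits of the tRNA splicing endonuclease, 1 was called. Tsen54, a structural subunit, was at 6.78, 8.87 and 7.47 CPM in knockouts, against 3.83, 4.10 and 3.83 CPM in controls (0.98, SE 0.18, adjusted p = 2.47e-03). Tsen34, a catalytic subunit, had overlapping groups, at 16.1 to 20.8 CPM in knockouts and 16.2 to 21.4 CPM in controls (-0.09, SE 0.15, adjusted p = 0.66, and 0.59 with library size alone). The value of Tsen15, the structural partner of Tsen34, was 0.29 (adjusted p = 0.306), and it was called higher without knockout 1 (0.50, adjusted p = 0.0278). The ratio of Tsen54 to Tsen34 counts was 0.408 to 0.426 in knockout libraries and 0.179 to 0.236 in control libraries. Clp1, an RNA kinase that associates with the endonuclease, was at 5.19, 4.29 and 4.90 CPM in knockouts, against 2.93, 3.33 and 2.09 CPM in controls, without overlap. It was higher by 0.78 (SE 0.22, adjusted p = 0.0217), but missed the threshold without control 1 (adjusted p = 0.0542) and without control 3 (adjusted p = 0.0736).

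Rtcb, the ligase that joins tRNA exons, was at 42.0, 49.5 and 46.7 CPM in knockouts, against 35.7, 32.6 and 31.1 CPM in controls (0.47, SE 0.11, adjusted p = 9.83e-03). Ssb encodes the La protein, which binds the 3' trailer of RNA polymerase III transcripts. It was at 45.5, 49.9 and 48.3 CPM in knockouts, against 36.3, 35.6 and 32.1 CPM in controls (0.46, SE 0.11, adjusted p = 7.79e-03). Both changes were small next to that of Xpot, and the groups did not overlap for either gene. The ratio of Xpot to Rtcb counts was 2.64, 2.29 and 2.26 in knockouts and 0.880, 0.963 and 1.04 in controls. Trpt1, a phosphotransferase known from yeast to remove the phosphate left by another kind of tRNA ligation, had a value of 0.06 (SE 0.21, adjusted p = 0.854). Thg1l, which adds a guanosine to the 5' end of histidine tRNA, was called higher, at 5.03, 5.33 and 4.50 CPM in knockouts against 2.70, 2.33 and 2.55 CPM in controls (0.97, SE 0.20, adjusted p = 4.41e-03).

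The tRNA methyltransferases held both the largest rises among the modification enzymes and the 1 member called lower. Trmt6 and Trmt61a encode the subunits of 1 enzyme, which methylates an adenosine in the T loop of tRNA, and both were called higher. Trmt6 was at 12.4, 13.4 and 13.7 CPM in knockouts, against 5.56, 4.21 and 6.26 CPM in controls (1.30, SE 0.17, adjusted p = 3.86e-04). Trmt61a, the catalytic subunit, was at 8.10, 6.32 and 4.26 CPM in knockouts, against 2.93, 2.55 and 3.48 CPM in controls (1.08, SE 0.26, adjusted p = 0.0105). Its knockout libraries spread widely and the lowest lay just above the highest control. The ratio of Trmt6 to Trmt61a counts overlapped between the groups, at 1.53 to 3.21 in knockouts and 1.65 to 1.90 in controls.

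Trmt1, which methylates a guanosine between the D and anticodon arms, was at 30.0, 26.4 and 23.9 CPM in knockouts, against 13.5, 13.5 and 12.3 CPM in controls (1.03, SE 0.13, adjusted p = 3.46e-04). Nsun2, a cytosine methyltransferase of tRNA and other RNAs, was at 47.7, 41.7 and 39.9 CPM in knockouts, against 26.4, 26.0 and 23.1 CPM in controls (0.78, SE 0.12, adjusted p = 8.99e-04). The groups of Trmt1 and of Nsun2 did not overlap. Trmt2a, which methylates a uridine of the T loop, missed the threshold although its groups did not overlap (0.34, SE 0.13, adjusted p = 0.0607). It passed without knockout 1 (0.39, adjusted p = 0.0342).

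Trmt5 (chr12:73280011-73286710, mm10), which methylates the guanosine next to the anticodon, was at 6.83, 13.2 and 14.3 CPM in knockouts, against 23.9, 20.7 and 20.6 CPM in controls. All 3 knockout libraries lay below the controls, and knockout 1 lay well below the other 2 knockouts. The log2 fold change was -0.94 (SE 0.24, adjusted p = 0.0124). It was -0.67 without knockout 1 (adjusted p = 2.36e-03), and the call was lost without control 1 (-0.86, adjusted p = 0.0509) and with library size alone (-0.26, adjusted p = 0.363). The ratio of Trmt1 to Trmt5 counts was 4.40, 2.01 and 1.67 in knockout libraries and 0.566, 0.652 and 0.596 in control libraries, without overlap. These counts are not adjusted for exon length, which is 6306 bases in Trmt1 and 2139 in Trmt5. Per kilobase, Trmt5 was at place 11 of the 41 members in knockouts, at 5.34 ± 1.88 CPM, and at place 5 in controls, at 10.2 ± 0.861 CPM (SD, n = 3 each). Trmt1 had a lower mean per kilobase in both groups, at 4.25 ± 0.491 CPM in knockouts and 2.08 ± 0.113 CPM in controls. In knockout 1 alone Trmt1 was the higher, at 4.76 against 3.19 CPM per kb. These lengths join the exons of all annotated transcripts of a gene, and the transcripts present in the hearts were not measured. Without regard to length, Trmt1 averaged 26.8 CPM in knockouts against 11.4 CPM for Trmt5, so the order of these 2 genes there depends on the length used.

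**Figure D4:**
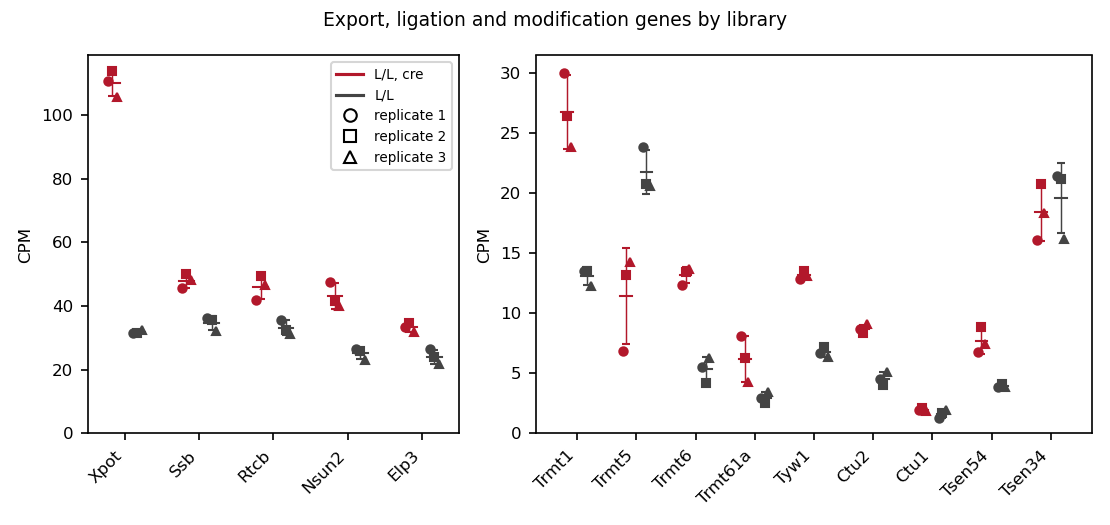
Level in CPM of export, ligation and modification genes in each library (points, shaped by replicate number) with the mean and SD of 3 libraries, knockout (L/L, cre, red) left of control (L/L, grey). Xpot is at 106 to 114 CPM in knockouts and 31.4 to 32.5 CPM in controls, Trmt5 is lower in knockouts, and Ctu1 and Tsen34 overlap between the groups.

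The 3 pseudouridine synthases, which turn uridine into its isomer, were each called higher. Pus1, which acts at several tRNA positions, was at 9.59, 7.94 and 6.67 CPM in knockouts, against 4.51, 4.66 and 4.41 CPM in controls (0.84, SE 0.19, adjusted p = 6.26e-03). Pus7 was at 17.3, 15.0 and 14.7 CPM in knockouts, against 9.09, 8.87 and 11.6 CPM in controls (0.68, SE 0.15, adjusted p = 7.35e-03). Pus3, which modifies the anticodon arm, was at 8.26, 8.29 and 7.15 CPM in knockouts, against 5.48, 6.54 and 4.64 CPM in controls. Its groups did not overlap, and its log2 fold change was the smallest of these 3, at 0.51 (SE 0.18, adjusted p = 0.0452). This call was the least stable, being lost in 9 of 16 settings, among them DESeq2 (adjusted p = 0.0974), the authors' deposited table (adjusted p = 0.0998) and each omission of 1 library except control 2 (adjusted p = 0.0517 to 0.138). Exons of Hyls1 on the opposite strand cover 88.1% of the Pus3 exons, and Hyls1 had 29, 39 and 20 counts in knockouts and 14, 21 and 18 in controls (0.03, adjusted p = 0.948). As the strand setting of the counting is unknown, reads of Pus3 and Hyls1 may be mixed or left out.

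The uridine at the wobble position of many tRNAs is modified by Elongator, Alkbh8 and a thiolation enzyme. Elp3, the catalytic subunit of Elongator, was at 33.5, 34.7 and 31.8 CPM in knockouts, against 26.4, 23.8 and 21.8 CPM in controls (0.47, SE 0.12, adjusted p = 0.0103). Its accessory subunit Elp4 had overlapping groups, at 6.89 to 8.98 CPM in knockouts and 7.88 to 9.09 CPM in controls (-0.05, SE 0.16, adjusted p = 0.832, and 0.64 with library size alone). The ratio of Elp3 to Elp4 counts was 3.86 to 4.86 in knockout libraries and 2.62 to 3.34 in control libraries. Ctu1 and Ctu2 form the enzyme that thiolates the wobble uridine. Ctu2 was at 8.69, 8.40 and 9.08 CPM in knockouts, against 4.51, 3.99 and 5.10 CPM in controls (0.94, SE 0.16, adjusted p = 1.82e-03). Ctu1, the catalytic partner, had overlapping groups at 1.85 to 2.09 CPM in knockouts and 1.28 to 1.97 CPM in controls (0.29, SE 0.27, adjusted p = 0.42). Ctu1 had only 96 counts over the knockouts and 49 over the controls. Exons of Piezo1 on the opposite strand cover 47.3% of the Ctu2 exons, and the Piezo1 value was -0.03 (adjusted p = 0.927). Reads of Ctu2 and Piezo1 may likewise be mixed or left out. Alkbh8, a methyltransferase of the modified wobble uridine, lay below the controls in all 3 knockout libraries, at 10.9, 9.21 and 11.1 CPM against 12.0, 12.0 and 13.7 CPM in controls, and missed the threshold (-0.27, SE 0.14, adjusted p = 0.161, and 0.43 with library size alone).

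Tyw1 acts after Trmt5 in making wybutosine, a modified guanosine beside the anticodon of phenylalanine tRNA. It was at 12.9, 13.6 and 13.1 CPM in knockouts, against 6.68, 7.21 and 6.38 CPM in controls (0.96, SE 0.14, adjusted p = 6.24e-04). Trmt5 and Tyw1 thus were called in opposite directions. Qtrt1, the catalytic subunit of the enzyme that inserts queuine, had a value of 0.42 (SE 0.24, adjusted p = 0.207). The dihydrouridine synthases Dus1l and Dus3l were at 0.40 and 0.08 (adjusted p = 0.0713 and 0.681), and the groups of Dus1l did not overlap. The adenosine deaminases Adat1 and Adat2, which make inosine, were at 0.14 and 0.37 (adjusted p = 0.707 and 0.532). Adat2 had 19 to 39 counts in each knockout library and 9 to 22 in each control library. Its control libraries spread from the lowest to the highest of all 6, at 0.676, 1.11 and 2.55 CPM, and its value was 1.03 without control 3 and -0.03 without control 1.

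**Figure D5:**
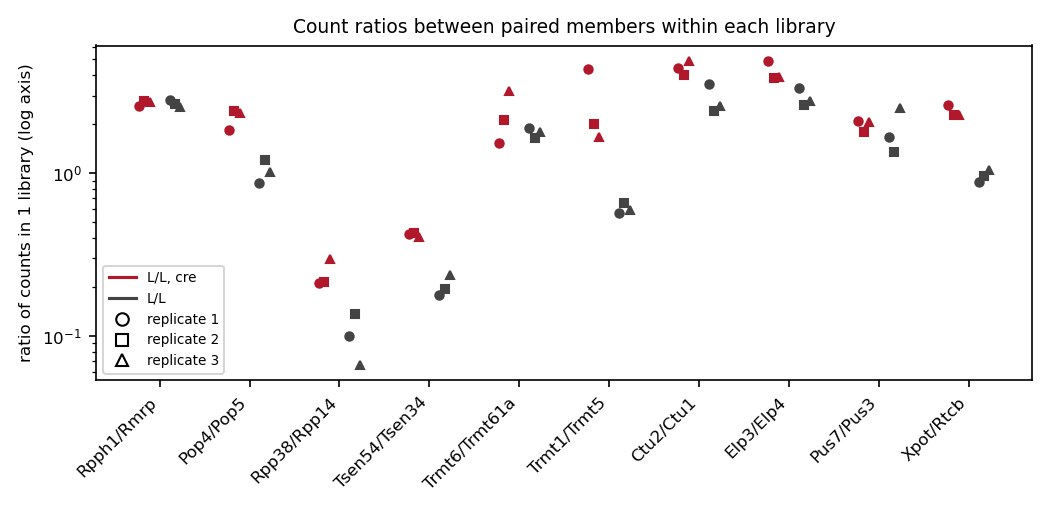
Ratio of the counts of paired members within each library on a log axis (points, shaped by replicate number), knockout (L/L, cre, red) left of control (L/L, grey). The ratios for Rpph1 to Rmrp, Trmt6 to Trmt61a and Pus7 to Pus3 overlap between the groups, and the other 7 lie higher in knockouts. The pairs were chosen after their values were seen, and each of these 7 has the gene with the larger log2 fold change on top. Their direction therefore follows from the choice and adds nothing to the values of the single genes.

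The 4 promoters below are shown because these genes were called higher and each window holds the E-box CACGTG, the palindromic motif bound by Myc and related factors. Each window runs from 250 bases before to 50 bases after the start of the gene, from RefSeq on GRCm38, and is written 5' to 3' on the strand of the gene with the motif in capitals.
Xpot (chr10:121626283-121626582, minus strand): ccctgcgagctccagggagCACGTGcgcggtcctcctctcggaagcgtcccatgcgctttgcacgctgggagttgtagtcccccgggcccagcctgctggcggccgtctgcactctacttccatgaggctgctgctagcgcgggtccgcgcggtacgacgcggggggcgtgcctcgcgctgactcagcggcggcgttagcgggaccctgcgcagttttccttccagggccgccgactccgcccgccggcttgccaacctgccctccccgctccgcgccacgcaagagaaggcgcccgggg
Rpp38 (chr2:3332579-3332878, minus strand): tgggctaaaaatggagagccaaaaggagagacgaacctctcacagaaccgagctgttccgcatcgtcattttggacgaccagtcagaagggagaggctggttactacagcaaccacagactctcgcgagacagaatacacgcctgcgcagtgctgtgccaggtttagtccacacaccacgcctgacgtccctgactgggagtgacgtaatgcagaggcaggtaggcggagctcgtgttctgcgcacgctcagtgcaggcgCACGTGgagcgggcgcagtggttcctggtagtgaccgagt
Trmt61a (chr12:111677855-111678154, plus strand): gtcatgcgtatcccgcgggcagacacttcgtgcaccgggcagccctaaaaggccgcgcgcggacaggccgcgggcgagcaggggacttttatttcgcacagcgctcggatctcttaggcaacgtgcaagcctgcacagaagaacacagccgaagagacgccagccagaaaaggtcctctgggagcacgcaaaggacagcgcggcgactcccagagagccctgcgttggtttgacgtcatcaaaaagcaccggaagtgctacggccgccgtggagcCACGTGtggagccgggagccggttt
Tsen54 (chr11:115814489-115814788, plus strand): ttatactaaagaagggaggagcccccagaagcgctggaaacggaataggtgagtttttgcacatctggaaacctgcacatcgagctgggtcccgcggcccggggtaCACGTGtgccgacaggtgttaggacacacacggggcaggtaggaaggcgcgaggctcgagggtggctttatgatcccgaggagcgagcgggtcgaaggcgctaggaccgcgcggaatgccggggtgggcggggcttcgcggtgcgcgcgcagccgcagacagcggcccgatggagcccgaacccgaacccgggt
Relative to the start site the motif begins at -231 in Xpot, 10 in Rpp38, 25 in Trmt61a and -144 in Tsen54. RefSeq windows were found for 32 of the 41 members, and 8 of these held CACGTG: the called Xpot, Rpp38, Trmt61a, Tsen54, Pus1, Pus3 and Pus7, and Qtrt1, which was not called. That is 7 of the 16 members called higher that had a window, and the share by gene over all genes was not computed. By window, 9 of 37 held it, against 7.15% of all 32851 windows and 9.75% of the 12651 windows of tested genes. Overlapping windows of Pus1 that hold the same motif are counted separately here. Motifs of the kind bound by ATF4 with C/EBP partners, TGATGCAA and TGATGNAAT on either strand, were in 0 and in 1 (Pus7) of the 37 windows, against 0.585% and 0.411% of windows of tested genes. These matches are letters in a window and do not show binding.

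Further genes of tRNA metabolism were also called higher more often than lower. A list of further nuclear and cytosolic tRNA processing and modification genes held 52 that were tested. Of these, 21 were higher, or 40.4% against 18.7% of all genes, and 2 were lower, with a median of 0.37. Thumpd3, a tRNA guanosine methyltransferase subunit, was higher by 1.37 (adjusted p = 8.12e-05), and the CCA-adding enzyme Trnt1 by 1.21. Tprkb, a subunit of the KEOPS complex that modifies the base beside the anticodon, was at 11.2, 16.2 and 14.5 CPM in knockouts against 4.66, 5.55 and 4.98 CPM in controls (1.47, SE 0.18). Ddx1, an RNA helicase of the Rtcb ligase complex, was higher by 0.78 (SE 0.11). The 2 lower genes, Fam98b of the same ligase complex at -1.07 (adjusted p = 0.0367) and the wybutosine enzyme Tyw3 at -0.87 (adjusted p = 0.0365), were named after their values were seen. Without knockout 2 or without control 3, 0 genes of this list were called lower, and 1 was called lower without knockout 3, control 1 or control 2. Fam98b was at 3.44, 2.38 and 2.09 CPM in knockouts, against 3.83, 4.21 and 9.04 CPM in controls.

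RNA polymerase III transcribes tRNA genes, Rpph1 and Rmrp. Of 29 subunits and factors tested, 11 were higher, or 37.9% against 18.7% of all genes, and the median was 0.27. Values above 0 were found for 19 of the 29. All 3 knockout libraries lay above the controls for 12, or 41.4%, and below them for 3, against 26.2% and 24.5% of all genes. By edgeR, 0 were called lower, with 1 lower at an unadjusted p under 0.05, 0 called by DESeq2 or limma-voom, and 2 called without knockout 1. Polr3g, a subunit with a paralog in Polr3gl, was at 7.47, 8.98 and 7.07 CPM in knockouts against 2.18, 1.44 and 1.39 CPM in controls (2.19, SE 0.23), more than any of the 40 tested members. Crcp, Polr1c and Polr3f were higher by 1.13, 0.93 and 0.75. Of 15 genes of mitochondrial tRNA modification and mitochondrial RNase P, 5 were higher, or 33.3% against 18.7% of all genes. Osgepl1 was the 1 lower gene, at -0.71, and the median was 0.23. With DESeq2, the replicate block or the authors' deposited table, 2 of the 15 were higher, against 16%, 15.2% and 14.5% of all genes. The number called higher was also 2 without knockout 3 or control 3, and 3 without knockout 2 or control 2. Trmt10c, a subunit of the mitochondrial RNase P, which has no RNA component, was higher by 0.67, Pusl1 by 0.98 and Nsun3 by 0.54. Of 33 ribosome biogenesis factors 24 were higher, or 72.7% against 18.7% of all genes. These factors had 0 lower calls by edgeR, at an unadjusted p under 0.05 too, and 0 by DESeq2 or limma-voom. Their median was 0.67, with Nhp2 at 2.31, Rrp12 at 2.02, Nop58 at 1.63 and Gnl3 at 1.56. The differences between these lists and the 40 members were not tested, and the lists were chosen with earlier results of these data known.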

How the data were processed

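Hearts of 3 knockout and 3 control mice were sequenced from total RNA as paired-end TruSeq libraries, per the labels. The submitters' processing notes name HISAT2 2.0.5, SAMtools 1.5, featureCounts 1.5.1, DESeq2 1.16.1 and the mm10 build, with no role or option for each. Raw counts, as whole numbers for each gene, are used here as the authors deposited them. The authors' deposited table of their own comparison gives a mean signal over the libraries in normalised counts, a log2 fold change with its SE, a Wald statistic, which is a score, and p-values before and after adjustment. Their separate normalised values were not used.

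Knockouts were set against controls over all 6 libraries by edgeR's quasi-likelihood test (edgeR 4.0.16, R 4.3.3), without a block, with TMM scaling, filterByExpr at a minimum count of 10, and Benjamini-Hochberg adjustment over all genes tested. A gene was called at an adjusted p under 0.05, and this test gives each adjusted p in the text that has no other tool beside it. SE is the log2 fold change divided by the square root of F. The test was tried on simulated counts. The members and lists, and the rule that names genes (all members and up to 4 called genes of each further list with the smallest adjusted p), were chosen with earlier results of these data known. Lists are described by counts and medians, without a set test. Exon lengths, coordinates and overlaps came from GENCODE M21, which holds all 41 members, 34 in the same gene version. In all, 14 members share exonic bases with another annotated gene. Promoters came from RefSeq.

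Libraries of 1 group differed beyond sampling noise (the smallest chi-square was 8.13 per degree of freedom). Separate libraries of 1 mouse could also differ in this way, so these values do not show that the columns are different mice. Each library was counted as 1 replicate. Each column is 1 mouse by the series design, which names technical replicates per mouse. The depth makes 1 count worth 0.0530 to 0.116 CPM. The alternatives tried were no filter, library size alone, RLE scaling, TMM that leaves out mitochondrial-encoded features, at least 50 counts in 3 libraries, DESeq2 1.42.0, limma-voom (limma 3.58.1), each library left out, a replicate block, the authors' deposited table, and an adjusted p under 0.01.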

Additional observations from a re-analysis of the deposited data

How the results depend on the processing

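Over 16 alternatives, 15 of the 22 members called higher kept their call in each, and 17 kept it without each library in turn. Members called higher numbered 20 to 24 except with library size alone (38) and at an adjusted p under 0.01 (15), and 20 to 23 without 1 library. Over all genes, 11.1% were called higher at an adjusted p under 0.01 and 11.8 to 21.5% under the other alternatives, library size alone apart. The lower call, of Trmt5, was lost with library size alone and at an adjusted p under 0.01 (0 called), and without 1 library there were 0 to 1. The median of the members was 1.18 with library size alone, 0.54 with no filter, 0.60 with at least 50 counts, 0.53 with limma-voom and 0.47 to 0.58 without 1 library. Values that changed sign were Tsen34 at 0.59, Alkbh8 at 0.43 and Elp4 at 0.64 with library size alone, and, without 1 library, Trpt1 (-0.0998 to 0.2307), Adat1 (-0.0025 to 0.3883), Adat2 (-0.0323 to 1.03) and Elp4 (-0.15 to 0.0540). The cause was not tested, beyond the shift of the median of all genes to 0.68 with library size alone.

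All genes called numbered 5217, 8643 with library size alone, 3006 at an adjusted p under 0.01 and 3694 to 5837 without 1 library. Elac2 stayed called at -1.35 to -1.21 without 1 library, and at -0.59 with library size alone. For the further tRNA genes, 47 were higher and 0 lower with library size alone. Their lower calls numbered 1 with at least 50 counts, limma-voom, the replicate block and the authors' deposited table, 0 at an adjusted p under 0.01, and 0 to 2 without 1 library. Their median was 1.07, 0.42, 0.35 and 0.40 with library size alone, no filter, at least 50 counts and the authors' deposited table, and 0.30 to 0.38 without 1 library. RNA polymerase III genes called higher numbered 23 with library size alone and 7 at an adjusted p under 0.01, with lower calls of 0 to 2 without 1 library, and a median of 0.94, or 0.16 to 0.32 without 1 library. Mitochondrial tRNA genes called higher numbered 14 with library size alone (0 lower, median 0.93), 2 with DESeq2, the replicate block, the authors' deposited table or an adjusted p under 0.01, and 2 to 5 without 1 library (median 0.18 to 0.33). The median of ribosome biogenesis factors was 1.39 with library size alone.

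The replicate number as a block gave 21 members higher and 1 lower, losing Pus3 (adjusted p = 0.0666), and 4293 genes in all. Correlations of the deviations, by replicate number, were -0.198, 0.0851 and -0.0871, so the numbers are not shown to pair the mice. Rpp25 had too few counts to be tested, and Rpp40, Adat1, Adat2 and Ctu1 did not reach 50 counts in 3 libraries.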
